A study of Mus musculus with 40 samples.

Results

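The step from the haematopoietic stem cell (HSC) to the lymphoid-primed multipotent progenitor (LMPP) was examined in control mice, by comparing 5 LMPP libraries with 5 HSC libraries from the same 5 animals, which is 10 of the 40 RNA-seq libraries of the series. The libraries were chosen by their labels alone, as control HSC and control LMPP, and were paired by mouse number. The control animals were of the genotype Mbd3_Flox/Flox, so that both alleles of Mbd3, a subunit of the NuRD chromatin remodelling complex, carried recombination sites and were intact. Their strain was C57BL6/129Ola and their age 46 to 51 days. HSCs were sorted from bone marrow with the gate CD45+ CD150+ CD48- EPCR+, and LMPPs as lineage-negative cells (Lin-) positive for Sca-1 and c-Kit, high in Flt3 (Flt3hi), and negative for IL-7Ra and B220. The same step was also followed in 5 other mice of the genotype Mbd3_Del/Del, and levels in 2 later control populations, all-lymphoid progenitors (ALPs, with IL-7Ra and without Ly6D) and B-biased lymphoid progenitors (BLPs, with both), are given beside some genes. The recombinase that deleted Mbd3, and the cells it acted in, are not stated in the labels. Each library came from a pool of sorted cells of 1 animal, amplified as full-length cDNA by Smart-seq2 without molecular identifiers. HSC pools held 150 cells and LMPP pools 100 by their labels, but the series' design text reverses these numbers. By either account the pool size differed with the population, and the effects of the 2 cannot be told apart.

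As background, the HSC is a mostly quiescent cell that renews itself for life and can form every blood lineage. LMPPs are cycling progenitors that have largely lost the ability to form platelets and red cells, while keeping the ability to form lymphocytes, granulocytes and monocytes. Flt3, a receptor for a growth factor of early progenitors, marks their entry into this state, and genes of the lymphoid program, such as those for V(D)J recombination, begin to be transcribed there before a lineage is chosen, which is called lymphoid priming.

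Levels are given in CPM (a gene's share of the gene counts of its library, on the usual CPM scale), and the 5 values of a population follow the order of mouse10357, mouse10358, mouse10372, mouse10380 and mouse10381. Fold changes and their standard errors (SE) are on the log2 scale of the edgeR quasi-likelihood test with mouse as a block, and p-values are adjusted over all genes tested. A gene is called, and said to have passed, risen or fallen, when this adjusted p is under 0.05. Errors of fold changes are SE, and those of levels are SD over 5 libraries. In pools of sorted cells, fewer cells that express a gene and less of its RNA per cell cannot be told apart.

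Of 11043 genes tested, 262 rose and 297 fell from HSC to LMPP, which is 2.37% and 2.69% of the genes tested and 5.06% together. The losses were the steeper changes. Among called genes the median fold was 3.83 for those that rose and 22.6 for those that fell, and 66 of the genes that fell had at most 3 counts over the 5 LMPP libraries, against 13 of those that rose with as few in HSCs. The median log2 fold change over all genes tested was -0.07. For 347 genes (3.14%) every LMPP library lay above every HSC library and for 697 genes (6.31%) every LMPP library lay below, and of these 190 and 284 were called. Leaving out 1 mouse changed these numbers by more than 1.5 times for 4 of the 5 mice: 128 genes rose and 152 fell without mouse10357, 137 and 159 without mouse10358, 122 and 145 without mouse10380, and 100 and 111 without mouse10381.

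**Figure D1:**
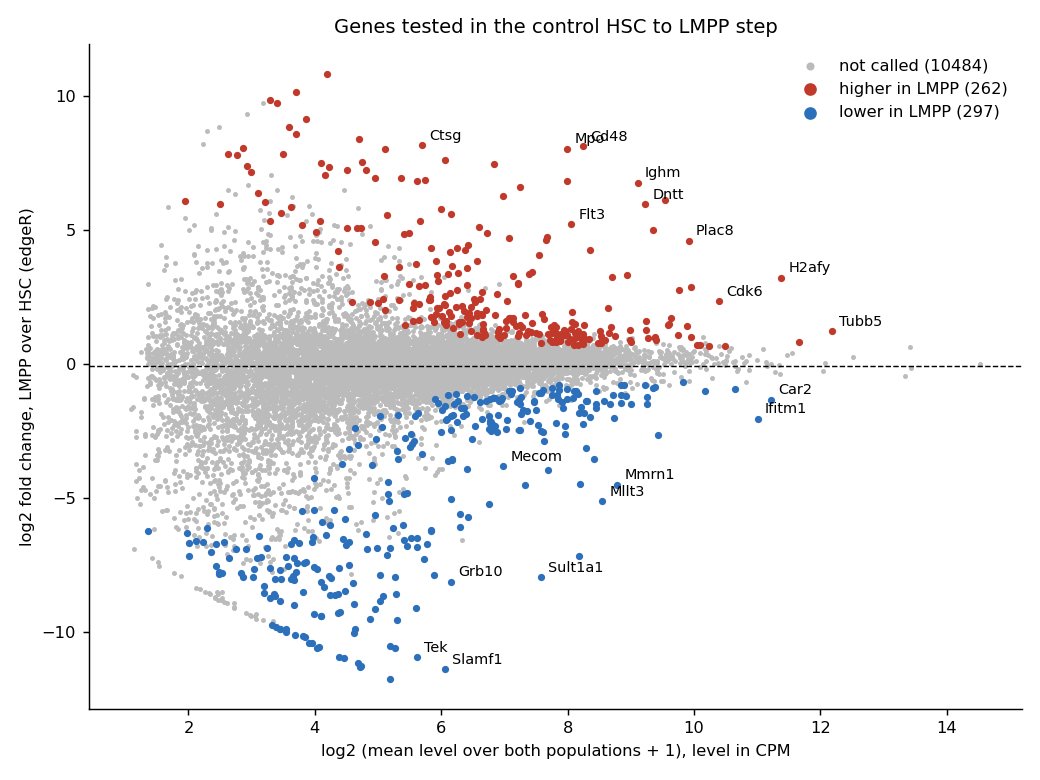
Each point is 1 of the 11043 genes tested, with its mean level over both populations on the x axis (log2 of CPM + 1) and its log2 fold change, LMPP over HSC, on the y axis. Red and blue points are the 262 genes that rose and the 297 that fell, and the dashed line is the median of all genes, -0.07.

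The libraries held 3219784 to 7189940 gene counts in HSCs and 6257696 to 8427880 in LMPPs. None of 7 library measures passed an adjusted exact permutation test. A measure that alone reached the smallest p of this design, 0.00794, would stay at 0.0556 after adjustment. The lack of a pass is therefore no sign that the libraries were alike. Genes detected at an equal depth of 3219784 counts averaged 13536 in HSCs and 12461 in LMPPs (exact permutation p = 0.0317, adjusted 0.111). This test did not use the pairing; within mice the number was lower and the total count higher in the LMPP library of all 5. The LMPP library of mouse10372 stood apart from the other 4 on the second principal component, with 10.5% of the variance, and had the fewest genes detected (12845), the highest mitochondrial share (7.75%) and the highest share in its 10 most counted genes (12.03%). Without mouse10372, 273 genes rose and 291 fell. Both libraries of mouse10372, labelled female, held the Y-linked transcript Ddx3y (194 and 222 CPM), and both of mouse10381, labelled male, held Xist (228 and 309 CPM). These levels go against the labelled sex, while the libraries of each mouse go together. Without both mice, 93 genes rose and 89 fell.

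The genes behind the sorting gates are a check of the labels and not a finding, since they chose the cells. Slamf1, which encodes CD150, was at 156, 135, 111, 144 and 111 CPM in the HSC libraries, and 4 of the LMPP libraries had no count of it while that of mouse10380 had 0.160 CPM. Cd48 lay at 2.196, 1.18, 6.21, 2.14 and 1.53 CPM in HSCs and at 524, 729.6, 631, 502 and 620.3 CPM in LMPPs. Flt3 lay at 26.1, 28.5, 7.45, 3.03 and 20.2 CPM in HSCs and at 922, 477, 305, 493 and 374 CPM in LMPPs. For these 3 genes the populations were apart by wide margins. Procr, which encodes EPCR, was at 227, 84.4, 125, 77.1 and 116 CPM in HSCs and at 35.8, 34.4, 0.463, 9.27 and 3.92 CPM in LMPPs. Procr had a log2 fold change of -3.57 ± 0.83 (adjusted p = 0.0479). The LMPP libraries of mouse10357 and mouse10358 kept 35.8 and 34.4 CPM, and the call was lost without mouse10357, mouse10380 or mouse10381 (adjusted p up to 0.17) and with no scaling beyond library totals. Kit, the c-Kit receptor on both cell types, overlapped between the populations (653, 558, 616, 418 and 694 CPM in HSCs and 466, 370.3, 298, 182 and 338 CPM in LMPPs), fell in all 5 mice (log2 fold change -0.78 ± 0.16, adjusted p = 0.0315) and lost its call without mouse10357, mouse10358, mouse10380 or mouse10381 (adjusted p up to 0.117) and in the fit without the mouse block (0.086). Ly6a (Sca-1; log2 fold change -0.75 ± 0.26, adjusted p = 0.145), Ptprc (CD45; log2 fold change 0.51 ± 0.19, adjusted p = 0.18), Ly6d (log2 fold change -1.58 ± 0.897, adjusted p = 0.395) and Il7r did not pass. Il7r was low in both, at 1.11 to 3.59 CPM in HSCs and 1.28 to 6.60 CPM in LMPPs, against a mean of 594 ± 187 CPM in ALPs, which were sorted for it.

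Sequence just upstream of a few of these and other genes is shown because the start of a gene is where many lineage factors bind. RefSeq promoters (GRCm38.p6, 250 bases before to 50 after the start) were found for 8605 of the tested genes, 194 that rose and 220 that fell. The motif TGTGGT, known for RUNX factors, was in 20.6% of the promoters of genes that rose, in 9.55% of those of genes that fell and in 12.4% of all 8605. GAGGAA, known for the ETS factor PU.1, was in 37.6%, 25.5% and 26.5%. AGATAA, known for GATA factors, was in 7.73%, 10.5% and 5.97%, and TGACTCA, the AP-1 motif, in 1.55%, 5.91% and 3.13%. The E-box CAGCTG was in 13.4%, 19.5% and 14.1%, the E-box CAGGTG in 18.04%, 20.5% and 16.3%, and CACGTG, the Myc and Max E-box, in 12.4%, 5.0% and 10.6%. Both strands were searched, CAGCTG and CACGTG read alike on both, and no 2 of these motifs share letters in the windows printed. These shares are a description of letters and were not tested, and no binding was measured. The 120 bases before the start, 5′ to 3′ on the gene's strand, are printed for 5 genes that rose (Plac8, Ctsg, Nkg7, Cd48, Dntt) and 2 that fell (Procr, Mmrn1), with the motifs found in capitals; the same windows of Mpo, Slamf1 and Mllt3 held none of these motifs and are not printed. In the printed ones, RUNX letters start 101, 79, 83 and 76 bases before the start of Plac8, Ctsg, Nkg7 and Cd48, and PU.1 letters 15 bases before that of Plac8 and 18 before that of Mmrn1. The GATA letters start 112 bases before Dntt and CAGCTG 34 bases before Procr.
Plac8 (chr5:100572206-100572325, minus strand): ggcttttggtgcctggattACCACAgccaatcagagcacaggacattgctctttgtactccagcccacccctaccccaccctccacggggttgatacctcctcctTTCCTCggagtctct
Ctsg (chr14:56102575-56102694, minus strand): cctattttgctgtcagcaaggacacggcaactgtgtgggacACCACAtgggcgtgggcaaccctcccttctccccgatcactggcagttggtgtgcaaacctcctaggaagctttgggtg
Nkg7 (chr7:43437018-43437137, plus strand): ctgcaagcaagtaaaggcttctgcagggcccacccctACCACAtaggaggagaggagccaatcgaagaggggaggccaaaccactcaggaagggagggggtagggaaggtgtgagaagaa
Cd48 (chr1:171681872-171681991, plus strand): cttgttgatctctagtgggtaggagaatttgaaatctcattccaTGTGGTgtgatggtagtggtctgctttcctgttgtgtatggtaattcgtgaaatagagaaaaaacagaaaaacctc
Dntt (chr19:41029155-41029274, plus strand): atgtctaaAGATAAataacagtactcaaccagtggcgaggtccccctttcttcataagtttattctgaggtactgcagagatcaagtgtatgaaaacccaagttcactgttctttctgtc
Procr (chr2:155751097-155751216, plus strand): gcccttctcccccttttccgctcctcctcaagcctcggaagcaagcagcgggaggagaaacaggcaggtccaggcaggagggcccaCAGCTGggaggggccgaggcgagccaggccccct
Mmrn1 (chr6:60944197-60944316, plus strand): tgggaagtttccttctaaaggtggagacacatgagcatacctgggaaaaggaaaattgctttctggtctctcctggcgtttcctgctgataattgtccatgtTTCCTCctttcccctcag

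Of the transcription regulators of the stem cell, 11 of 23 tested fell and none rose. The list had a median log2 fold change of -1.96 against -0.07 for all genes. Beside this list and those below, 2.37% of all genes tested rose and 2.69% fell. Mllt3, a reader of acetylated chromatin known to support stem cell renewal, was at 790.1, 588, 836, 727 and 686 CPM in the HSC libraries and at 23.1, 32.6, 22.2, 24.3 and 5.93 CPM in the LMPP libraries. Mllt3 had a log2 fold change of -5.12 ± 0.36 (adjusted p = 0.000215). Every LMPP library lay far below every HSC library, and that of mouse10381 was the lowest. Mecom, which encodes the zinc finger factor EVI1 needed by HSCs, went from 221, 239, 146, 201 and 357 CPM to 25.5, 5.85, 8.18, 26.8 and 19.2 CPM. Mecom had a log2 fold change of -3.82 ± 0.39 (adjusted p = 0.00124), again without overlap. Gata2, a GATA factor of stem and early progenitor cells, fell from 129 ± 40.5 to 12.5 ± 7.52 CPM (SD, n = 5 each; log2 fold change -3.55 ± 0.39, adjusted p = 0.00203). Hoxb5, a homeobox gene used to mark long-term HSCs, had 524 counts over the HSC libraries and 1 over the LMPP libraries, a ratio of 682 with a lower 95% limit of 122 from counting error, and its call was lost without mouse10357 (adjusted p = 0.089). Hlf, Meis1, Mycn, Tal1 and Gata3 also fell, with log2 fold changes of -1.50, -1.37, -2.47, -1.96 and -2.62. They lie outside the rule for named genes and were picked after their values were seen. Whether their calls were kept without single mice was not examined gene by gene. Of the members that did not pass, 2 were Hoxa9 (0.59, adjusted p = 0.14) and Lmo2 (-0.64, adjusted p = 0.12). Leaving out single mice left 8 to 14 of the 23 lower.

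Surface and secreted genes of the HSC went the same way. All 25 tested members had negative fold changes, with a median of -3.09, and 15 fell, where 2.69% of all genes tested did. Without single mice 8 to 12 members fell, fewest without mouse10381. Tek, the angiopoietin receptor TIE2 of stem and endothelial cells, was at 71.7, 89.3, 99.1, 101 and 119.8 CPM in HSCs, and in LMPPs it gave 1 count in all, in mouse10358 (ratio 3526 with a lower 95% limit of 632). Sult1a1, a sulfotransferase, went from 381, 257, 646, 366 and 243 CPM to 3.73, 0.249, 0.309, 6.23 and 0.119 CPM. Sult1a1 had a log2 fold change of -7.96 ± 0.78 (adjusted p = 0.00106), and the populations did not overlap. Esam, an adhesion molecule used to mark HSCs, fell from 106 ± 43.3 to 1.79 ± 2.32 CPM (log2 fold change -6.73 ± 1.003, adjusted p = 0.00792). Clec1a, a C-type lectin receptor, had 1130 counts in HSCs and none in LMPPs, at least 490.1-fold lower against 3 counts over the group; its call was lost without mouse10381 (adjusted p = 0.0577). Trpc6, a calcium channel, also fell (log2 fold change -6.10 ± 1.27, adjusted p = 0.0315), losing its call without mouse10357, mouse10358, mouse10372 or mouse10381 (adjusted p up to 0.0902). The most abundant losses in CPM included Ifitm1 (3262 ± 874 to 849 ± 535 CPM; log2 fold change -2.06 ± 0.32, adjusted p = 0.00892), Ifitm3 (log2 fold change -1.03 ± 0.19, adjusted p = 0.0198), the tetraspanin Cd81 (log2 fold change -0.94 ± 0.18, adjusted p = 0.0242) and the protease inhibitor Serpina3g (log2 fold change -2.64 ± 0.24, adjusted p = 0.000789). Reads of the Ifitm and Serpina3 families can be split between similar copies, so these counts are uncertain. Ifitm3 lost its call without mouse10357, mouse10358 or mouse10380 (adjusted p up to 0.0764) and Cd81 without mouse10357, mouse10380 or mouse10381 (up to 0.0845).

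Of 15 tested genes of the megakaryocyte and platelet lineage 5 fell, 1 rose and 9 did not pass, at a median of -3.88. Among all genes tested 2.69% fell and 2.37% rose. The summed level of the list was 1836 to 2430 CPM in HSC libraries and 320 to 890 CPM in LMPP libraries. Mmrn1, a platelet adhesion protein, was at 656, 651, 1081, 1157 and 639 CPM in HSCs and at 123, 41.1, 38.9, 11.3 and 15.9 CPM in LMPPs. Mmrn1 had a log2 fold change of -4.52 ± 0.58 (adjusted p = 0.00421); the populations were apart, and the LMPP library of mouse10357 stood above the other 4. Rab27b, a GTPase of granule release, had 1632 counts in HSCs and 3 in LMPPs (ratio 708, lower 95% limit 242). Pf4, the platelet chemokine, averaged 32.96 ± 6.91 CPM in HSCs and 2.82 ± 2.097 CPM in LMPPs without passing (adjusted p = 0.0583). Plek, a substrate of protein kinase C that platelets share with myeloid cells, rose (log2 fold change 3.82 ± 0.74, adjusted p = 0.0241), losing its call without mouse10358, mouse10380 or mouse10381 (adjusted p up to 0.0823). Nfe2, a factor of platelet formation, fell (log2 fold change -1.01 ± 0.21, adjusted p = 0.0315); its populations overlapped, and the call was lost without mouse10357, mouse10372, mouse10380 or mouse10381 (adjusted p up to 0.104) and without the mouse block (0.0675). Without single mice, 3 to 5 members fell. Of 7 tested erythroid genes only Car2, carbonic anhydrase 2, passed. It was at 3765, 3026, 3069.8, 3851 and 3267 CPM in HSCs and 2391, 1754, 850.1, 864 and 970.5 CPM in LMPPs. Car2 had a log2 fold change of -1.34 ± 0.24 (adjusted p = 0.017), lower in each LMPP library, and its call was lost without mouse10381 (adjusted p = 0.0776). Gata1, the erythroid and megakaryocyte regulator, was too low to test, with 29 counts over the HSC libraries and 0 over the LMPP libraries.

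**Figure D2:**
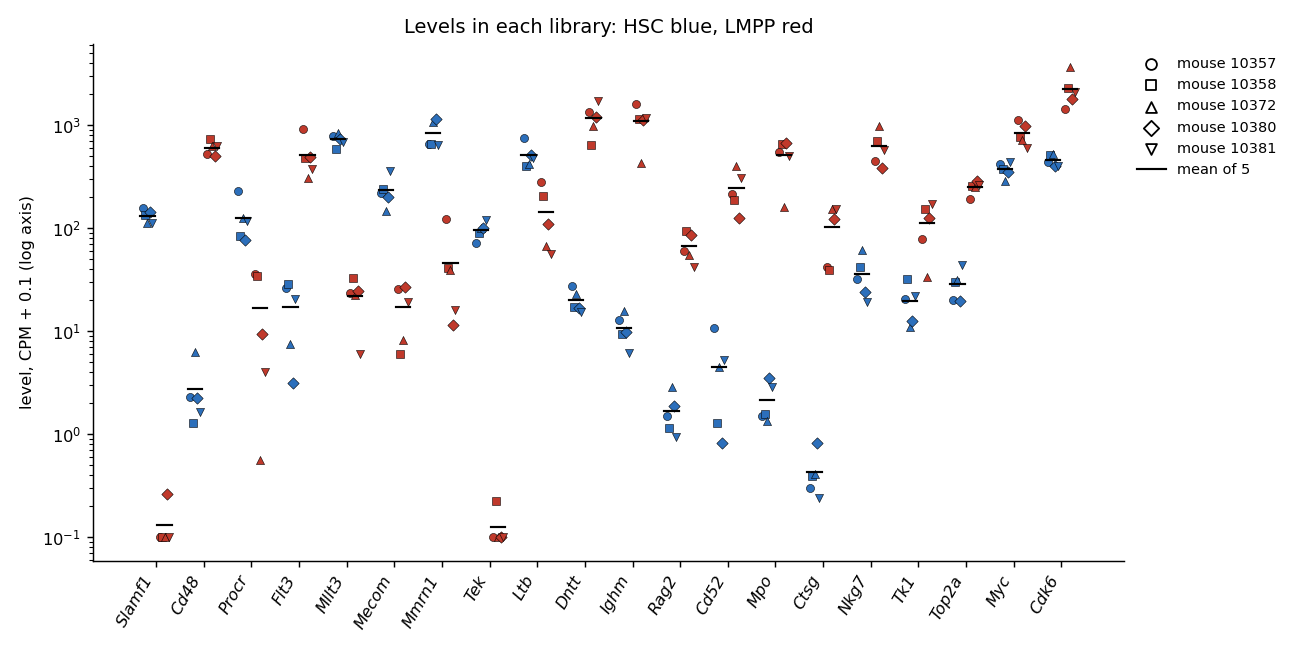
Level of 20 genes in each of the 10 libraries, in CPM + 0.1 on a log axis, with HSC libraries in blue, LMPP libraries in red, 1 marker shape per mouse and a bar at the mean of 5. The sets of points do not overlap for any gene shown, and the LMPP library of mouse10357 is the highest of its population for Mmrn1.

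Of 24 tested genes of lymphoid priming 10 rose, 2 fell and 12 did not pass, at a median of 1.28, and 8 to 10 rose when single mice were left out. Among all genes tested 2.37% rose and 2.69% fell. Dntt, the terminal transferase that adds bases at V(D)J joints, was at 27.3, 16.98, 22.98, 16.6 and 15.2 CPM in HSCs and at 1328, 647, 975, 1209.9 and 1727 CPM in LMPPs. Dntt had a log2 fold change of 5.94 ± 0.31 (adjusted p = 4.69e-05). No LMPP library came near an HSC library. Rag2, a subunit of the V(D)J recombinase, rose from 1.397, 1.03, 2.795, 1.78 and 0.834 CPM to 59.5, 93.2, 54.6, 85.3 and 41.8 CPM. Rag2 had a log2 fold change of 5.55 ± 0.52 (adjusted p = 0.000752), whereas its partner Rag1 stayed too low to test, with 12 and 33 counts over the 5 libraries of each population. Ighm, the mu constant region, which early progenitors are known to transcribe without rearrangement, went from 12.8, 9.301, 15.5, 9.64 and 5.98 CPM to 1593, 1139, 429, 1130.0 and 1168 CPM. Ighm had a log2 fold change of 6.75 ± 0.42 (adjusted p = 0.000124), and the lowest LMPP library was that of mouse10372. Cd52, a lymphocyte surface glycoprotein, rose from 4.39 ± 3.96 to 247 ± 108 CPM (log2 fold change 6.26 ± 0.51, adjusted p = 0.000454), and Btla, an inhibitory receptor of lymphocytes, from 0.145 ± 0.164 to 50.01 ± 11.4 CPM (log2 fold change 8.40 ± 0.88, adjusted p = 0.0015). Notch1, the receptor that directs T cell fate, rose from 8.24 ± 2.25 to 37.7 ± 10.02 CPM (log2 fold change 2.29 ± 0.51, adjusted p = 0.0386) but lost its call without any 1 of the 5 mice (adjusted p up to 0.138). Its call was also lost with no scaling beyond library totals and with no filter on low counts.

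Satb1, a chromatin organizer (4.04, adjusted p = 0.00037), Cd27, a costimulatory receptor (1.47, adjusted p = 0.0069), and Ikzf1, the Ikaros factor (0.85, adjusted p = 0.025), were also among the 10 that rose. The numbers are log2 fold changes, and these genes were picked after their values were seen. Whether their calls were kept without single mice was not examined gene by gene. All genes of the heavy chain locus together took 0.00125% of counts in HSCs and 0.119% in LMPPs on average, without overlap (exact permutation p = 0.00794, the smallest the design allows, adjusted 0.0556).

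The 2 lymphoid genes that fell were Ltb and Foxo1. Ltb, a ligand of the tumour necrosis factor family made by lymphoid cells, was at 746, 402, 415, 510.4 and 478 CPM in HSCs and at 277, 205, 66.4, 110.3 and 56.4 CPM in LMPPs. Ltb had a log2 fold change of -1.97 ± 0.29 (adjusted p = 0.00771), with no overlap. Foxo1, a factor needed for early B cell development, was at 45.1, 34.4, 54.4, 42.1 and 82.9 CPM in HSCs and 12.2, 3.36, 9.26, 1.76 and 16.1 CPM in LMPPs. Foxo1 had a log2 fold change of -2.80 ± 0.57 (adjusted p = 0.0292), also without overlap, and lost its call without mouse10357, mouse10358, mouse10380 or mouse10381 (adjusted p up to 0.0984). In BLPs Foxo1 averaged 102 ± 60.6 CPM, above both earlier populations in mean, and Ltb 52.9 ± 42.04 CPM.

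Genes of later lymphoid lineages were mostly too low to test. Of 16 B lineage genes 2 were tested and neither passed (0 at an unadjusted p under 0.05, 1 lower by DESeq2). Ebf1, a B lineage factor, had 35 counts over HSCs and 4 over LMPPs, and Pax5 had 1 and 0. Of 17 T lineage genes only Lck, a kinase of T cell receptor signalling, was tested, and it rose (log2 fold change 1.55 ± 0.35, adjusted p = 0.0441), losing its call without mouse10357, mouse10358, mouse10380 or mouse10381 (adjusted p up to 0.159) and with no scaling beyond library totals. Of the NK and innate lymphoid list 5 were tested and Nkg7, a granule protein of cytotoxic cells, rose from 32.1, 41.9, 61.5, 24.1 and 19.2 CPM to 450.3, 706, 987, 385 and 573 CPM. Nkg7 had a log2 fold change of 4.25 ± 0.24 (adjusted p = 7.59e-05), the populations being far apart. The other 4 tested members of that list did not pass. Of its 5 fold changes 3 were negative, at a median of -0.93. Among mature B and plasma cell genes Cd37 (log2 fold change 2.67 ± 0.34, adjusted p = 0.00403) and Ighd passed; Ighd had 3 counts in HSCs and 494 in LMPPs (ratio 127, lower 95% limit 43.1), and as it lies beside Ighm and strand was not marked, its reads may be shared with that locus. The call of Ighd was lost without mouse10357, mouse10380 or mouse10381 (adjusted p up to 0.089). Among dendritic cell genes Ctss rose (log2 fold change 1.72 ± 0.28, adjusted p = 0.013) and Cd74, the invariant chain of MHC class II, fell (log2 fold change -2.56 ± 0.58, adjusted p = 0.0429); Ctss lost its call without mouse10381 (adjusted p = 0.0596) and Cd74 without mouse10357, mouse10358, mouse10372 or mouse10381 (adjusted p up to 0.103).

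Some granulocyte and monocyte genes rose beside the lymphoid ones. Of 13 tested members 4 rose and none fell, at a median of 1.66, where 2.37% and 2.69% of all genes tested did. Mpo, myeloperoxidase of the neutrophil granule, was at 1.397, 1.48, 1.24, 3.39 and 2.78 CPM in HSCs and at 551, 650.2, 161, 663 and 505 CPM in LMPPs. Mpo had a log2 fold change of 8.01 ± 0.31 (adjusted p = 2.45e-05). The LMPP library of mouse10372 was the lowest of the 5 and still far above the HSC libraries. Ctsg, the granule protease cathepsin G, lay at 0.1996, 0.295, 0.311, 0.714 and 0.139 CPM in HSCs and 41.7, 38.9, 152, 123 and 153 CPM in LMPPs. Ctsg had a log2 fold change of 8.16 ± 0.59 (adjusted p = 0.000256). The sialic acid receptor Cd33 (log2 fold change 7.51 ± 1.17, adjusted p = 0.0093) and the lectin Clec12a (log2 fold change 5.08 ± 0.76, adjusted p = 0.0079) also rose. Elane, the elastase of the same granules, had 2 counts in HSCs and 0 in LMPPs, Csf1r, the macrophage growth factor receptor, did not pass (log2 fold change 4.29 ± 1.54, adjusted p = 0.177), and Prtn3 (0.31, adjusted p = 0.57) and Lyz2 (-0.63, adjusted p = 0.072) did not either. The summed level of the 25 genes of the list was 979 to 1509 CPM in HSC libraries and 1280 to 2320 CPM in LMPP libraries. Whether a subset of cells or the whole pool carried these transcripts was not tested. Of 4 tested macrophage genes none passed (2 at an unadjusted p under 0.05, 3 by DESeq2), and of 4 stromal and endothelial genes Pdgfrb rose (log2 fold change 5.62 ± 1.22, adjusted p = 0.0364), losing its call without mouse10357, mouse10358, mouse10372 or mouse10380 (adjusted p up to 0.129). The other 3 stromal and endothelial genes did not pass, and 2 of the 4 fold changes were negative. DESeq2 called 2 of these 4 genes higher and 2 lower.

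Receptors and adhesion molecules changed in both directions. Of 32 tested cytokine receptors 4 rose and 3 fell, at a median of 0.12, where 2.37% and 2.69% of all genes tested did. Flt3 and Kit among these are gate genes, which chose the cells. Beside Flt3, those that rose were the interleukin 1 receptor Il1r1 (log2 fold change 4.32 ± 0.74, adjusted p = 0.0147) and the class II cytokine receptor chains Il10rb (log2 fold change 1.76 ± 0.35, adjusted p = 0.0268) and Ifnar2 (log2 fold change 1.51 ± 0.29, adjusted p = 0.022), and those that fell included Tek and Kit. Il1r1 lost its call without mouse10358 or mouse10381 (adjusted p up to 0.0704) and Il10rb and Ifnar2 without mouse10357, mouse10358, mouse10380 or mouse10381 (up to 0.101 and 0.0884); Il10rb also did without the mouse block (0.063). In the homing and adhesion list 6 of 20 rose and 1, Esam, fell, at a median of 1.17. The sialomucin Cd34 rose from 231 ± 86.5 to 1499 ± 609.9 CPM (log2 fold change 2.75 ± 0.34, adjusted p = 0.00356), the immunoglobulin family protein Emb from 248.6 ± 35.5 to 1727 ± 378 CPM (log2 fold change 2.87 ± 0.21, adjusted p = 0.000257), and the integrin alpha L chain Itgal from 2.02 ± 4.32 to 52.02 ± 24.5 CPM (log2 fold change 7.23 ± 1.23, adjusted p = 0.0141; lost without mouse10357, mouse10380 or mouse10381, adjusted p up to 0.0625, and without the mouse block, 0.0505). Selplg, the P-selectin ligand, also rose (log2 fold change 1.22 ± 0.26, adjusted p = 0.0323; lost without mouse10357, mouse10358, mouse10380 or mouse10381, up to 0.113, and with no scaling beyond library totals).

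Of the cell cycle genes, 8 of 28 tested in the mitosis list rose and none fell. All 28 had positive fold changes, with a median of 2.92. Of 28 DNA replication genes 25 were positive, 17 rose and none fell, at a median of 1.58. The share of all genes tested that rose was 2.37%. Top2a, the topoisomerase of dividing cells, was at 19.96, 29.5, 31.1, 19.3 and 43.95 CPM in HSCs and 191, 258, 251.7, 284 and 262 CPM in LMPPs. Top2a had a log2 fold change of 3.26 ± 0.23 (adjusted p = 0.000215). Mki67, the proliferation marker Ki-67, ranged widely among HSC libraries, at 19.4, 0.738, 23.9, 1.61 and 14.3 CPM, and lay at 92.9, 272, 165, 113 and 121 CPM in LMPPs. Mki67 had a log2 fold change of 4.26 ± 0.899 (adjusted p = 0.0327; lost without mouse10380 or mouse10381, adjusted p up to 0.101). Both genes were higher in every LMPP library. Tk1, thymidine kinase of S phase, went from 20.2, 32.2, 10.9, 12.3 and 21.98 CPM to 78.4, 155, 33.5, 124 and 170.4 CPM. Tk1 had a log2 fold change of 2.52 ± 0.35 (adjusted p = 0.00632), with the LMPP library of mouse10372 just above the highest HSC library. Aurkb (log2 fold change 4.83 ± 0.69, adjusted p = 0.00694), Rrm2 (log2 fold change 2.60 ± 0.46, adjusted p = 0.0174) and Cdt1 (log2 fold change 2.38 ± 0.44, adjusted p = 0.0205), genes of chromosome segregation, nucleotide reduction and origin licensing, also rose. The number of replication genes that rose depended on the mice: it was 6 without mouse10357, 11 without mouse10358, 7 without mouse10380 and 4 without mouse10381, and of mitosis genes it was 5 without mouse10358, 4 without mouse10380 and 3 without mouse10381. Rrm2 lost its call without mouse10357, mouse10358 or mouse10381 (adjusted p up to 0.0776) and Cdt1 without mouse10357, mouse10358, mouse10380 or mouse10381 (up to 0.0819), the latter also without the mouse block (0.0522). Gins1 (log2 fold change 2.39 ± 0.51, adjusted p = 0.0357), Ccne2 (log2 fold change 2.41 ± 0.54, adjusted p = 0.0427), Nusap1 (log2 fold change 4.15 ± 0.66, adjusted p = 0.0105) and Hmmr (log2 fold change 6.04 ± 1.300, adjusted p = 0.0357), of replication and the spindle, rose too, and each lost its call without 1 or more mice: Hmmr did so without any 1 of the 5 and without the mouse block (0.0781).

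Among G1 regulators Cdk6, a kinase that starts the cycle and is known to be low in resting HSCs, went from 437, 506, 525, 401 and 404 CPM to 1417, 2301, 3621, 1808 and 2091 CPM. Cdk6 had a log2 fold change of 2.34 ± 0.21 (adjusted p = 0.000726), without overlap. Its relative Cdk4 also rose (log2 fold change 1.01 ± 0.16, adjusted p = 0.0113; lost without mouse10380 or mouse10381, adjusted p up to 0.0561). Cdkn1c, the inhibitor p57 known to hold HSCs at rest, was at 51.1, 27.5, 13.7, 20.5 and 30.5 CPM in HSCs and at 1.004, 0, 0, 2.72 and 0.119 CPM in LMPPs. Cdkn1c had a log2 fold change of -6.46 ± 1.35 (adjusted p = 0.0316; lost without mouse10357, mouse10358 or mouse10381, adjusted p up to 0.123). The other 11 of 14 did not pass. Of 26 tested genes of Myc and ribosome biogenesis 23 had positive fold changes, at a median of 0.77, and 2 passed. Myc itself was at 418, 376, 286, 348 and 439 CPM in HSCs and 1130.4, 771, 716, 979 and 604 CPM in LMPPs. Myc had a log2 fold change of 1.25 ± 0.18 (adjusted p = 0.0068), with no overlap. The nucleolar protein Nop56 rose less (log2 fold change 0.77 ± 0.15, adjusted p = 0.0229; lost without any of mouse10357, mouse10358, mouse10380 and mouse10381, up to 0.0998, and without the mouse block, 0.0714). With no scaling beyond library totals Myc did not lose its call, while the median of all genes moved to -0.17.

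Several imprinted genes, which are expressed from 1 parental allele, fell. Of 15 tested members 7 did and none rose, at a median of -1.55, where 2.69% of all genes tested fell. Without single mice 4 to 6 fell, so that 4 did without mouse10357 or mouse10381. Grb10, an adaptor that limits growth factor signalling, was at 134, 173, 134, 108 and 143 CPM in HSCs; in LMPPs it was at 0, 0.374, 0, 0.1598 and 9.25 CPM. Grb10 had a log2 fold change of -8.13 ± 1.196 (adjusted p = 0.00771); 4 LMPP libraries were near 0 and that of mouse10381 was not. Phlda2 (chr7:143501545-143503150) and Cdkn1c (chr7:143458339-143461050), which lie near each other on the same chromosome, both fell, Phlda2 from 62.9 ± 24.6 to 0.344 ± 0.7695 CPM (log2 fold change -8.84 ± 1.25, adjusted p = 0.0068). Snrpn (chr7:59982495-60140219), a splicing protein gene, had 1105 counts in HSCs and 2 in LMPPs (ratio 719, lower 95% limit 199), and Ndn (chr7:62346569-62350262), a growth suppressor on the same chromosome, fell from 80.98 ± 19.3 to 5.38 ± 5.796 CPM (log2 fold change -4.80 ± 0.94, adjusted p = 0.0249). The noncoding RNA genes H19 (172 counts against 1, ratio 224, lower 95% limit 39.6) and Meg3 (424 against 1, ratio 552, lower 95% limit 98.5) completed the 7. H19 lost its call without any 1 of the 5 mice (adjusted p up to 0.164), Meg3 without mouse10372 (0.0646) and Ndn without mouse10357 or mouse10381 (up to 0.111). Of 9 tested Hox genes only Hoxb5 passed, where 5.06% of all genes tested did.

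In each list of energy metabolism and stress 0 to 2 members passed, where 5.06% of all genes tested did. In the respiratory chain list 23 of 25 fold changes were positive, but the median was 0.38 and 2 passed, Cox5a (log2 fold change 1.09 ± 0.18, adjusted p = 0.0114; lost without mouse10381, adjusted p = 0.0545) and Ndufa4 (log2 fold change 1.47 ± 0.22, adjusted p = 0.00795). Of 22 glycolysis genes Ldhb, a lactate dehydrogenase chain, passed (log2 fold change -1.05 ± 0.21, adjusted p = 0.0268; lost without mouse10357, mouse10358, mouse10380 or mouse10381, up to 0.1) and the median was -0.04. In the interferon list 1 of 29 rose, Ifi27 (log2 fold change 1.44 ± 0.198, adjusted p = 0.00628), and 1 fell, Ifi44 (log2 fold change -1.32 ± 0.19, adjusted p = 0.0068), at a median of -0.51. Fold changes were negative for 22 of the 29, and 9 had an unadjusted p under 0.05. DESeq2 called 1 of them higher and 7 lower, and 1 to 4 fell when single mice were left out. None of 18 immediate early and heat shock genes (median -1.12) and none of 17 p53 target and Bcl2 family genes (median 0.42) passed by edgeR. At an unadjusted p under 0.05 the numbers were 3 and 4, and DESeq2 called 3 of each. For the respiratory chain and glycolysis lists the unadjusted numbers were 9 and 6. DESeq2 called 5 respiratory chain genes higher and 0 lower, and 2 glycolysis genes higher and 2 lower. Of the TGF-beta, BMP, Wnt and Notch list 2 of 19 fell, Tgfbr3 (log2 fold change -6.52 ± 1.28, adjusted p = 0.0247) and Bmpr2 (log2 fold change -1.38 ± 0.28, adjusted p = 0.0275), and Notch1 rose. None of these 3 calls was kept without mouse10380 or without mouse10381. In the NuRD list 1 of 14 tested genes passed, where 5.06% of all genes tested did. This was Mta3, which rose (log2 fold change 2.17 ± 0.41, adjusted p = 0.0218), from 34.1, 16.4, 25.8, 61.2 and 23.8 CPM to 169.6, 159, 82.1, 94.9 and 127 CPM, and lost its call without mouse10357, mouse10358 or mouse10381 (up to 0.0954). Mbd3 itself was at 8.18, 18.01, 13.04, 18.9 and 20.4 CPM in HSCs and 54.2, 51.9, 18.5, 42.99 and 34.4 CPM in LMPPs; it was higher in LMPP in all 5 mice without passing (log2 fold change 1.42 ± 0.49, adjusted p = 0.151).

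**Figure D3:**
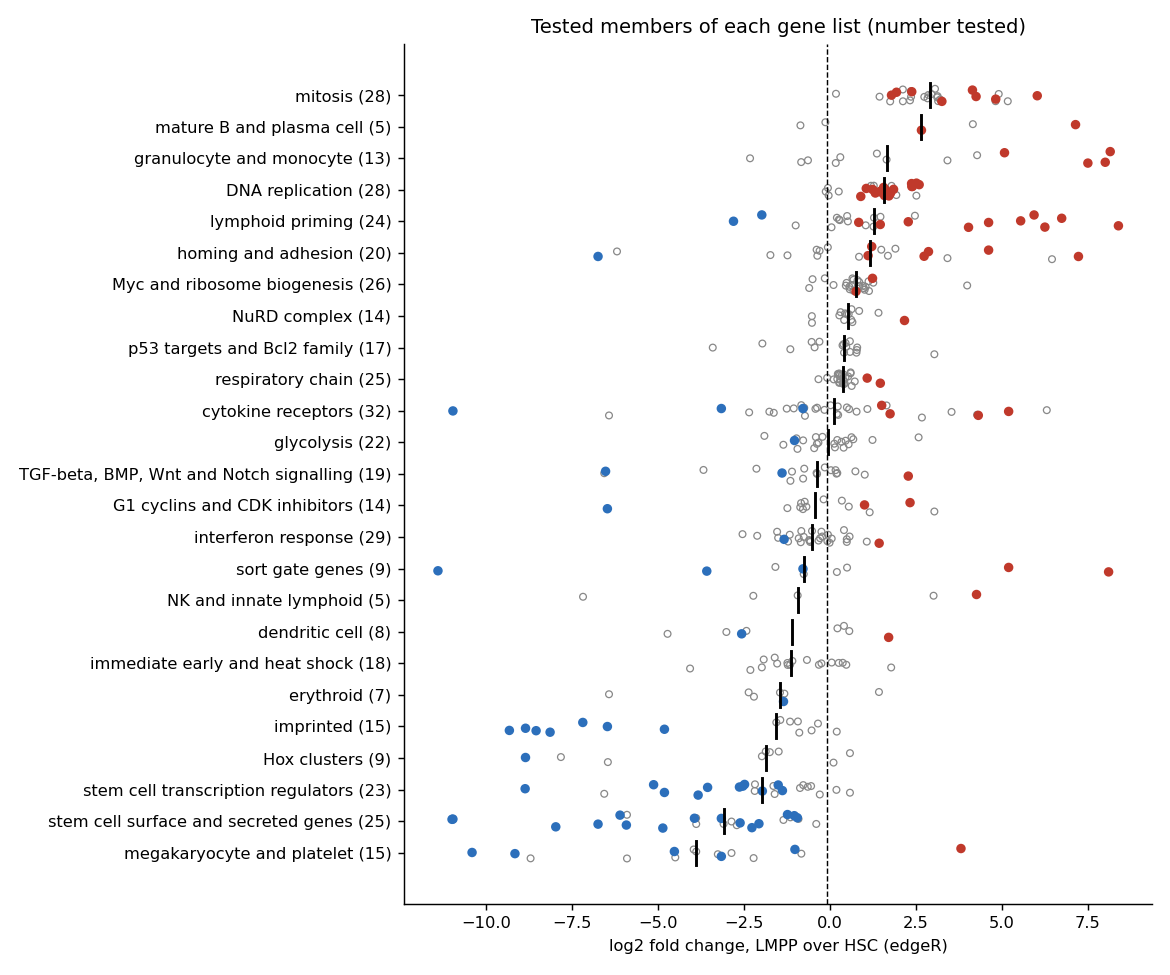
Log2 fold change, LMPP over HSC, of each tested member of the gene lists with at least 5 tested members, 1 list per row with the number tested. Filled red and blue points passed in the edgeR test, open points did not, short bars are list medians and the dashed line is the median of all genes, -0.07. Mitosis lies at the top with a median of 2.92 and the megakaryocyte and platelet list at the bottom with -3.88.

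Over the 30 lists together, 434 of 602 genes were tested, 64 rose and 47 fell, 25.6% of those tested against 5.06% of all genes. The lists were drawn up for this comparison with earlier results of these data known, so that a higher share is not independent evidence.

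Beyond the lists, the genes that rose with the largest difference in CPM were H2afy, Tubb5, Cdk6, Plac8 and Arhgdib. H2afy, which encodes the histone variant macroH2A1, was at 516, 665, 608, 392.1 and 544 CPM in HSCs and 4335, 3443, 7399, 4016 and 4784 CPM in LMPPs. H2afy had a log2 fold change of 3.21 ± 0.22 (adjusted p = 0.000215), each LMPP library several times above the HSC libraries. Tubb5, a beta tubulin, went from 2795, 3184, 2678, 3239 and 2493 CPM to 3741, 8346, 6589, 6562 and 6778 CPM. Tubb5 had a log2 fold change of 1.21 ± 0.204 (adjusted p = 0.0137; lost without mouse10358 or mouse10381, adjusted p up to 0.0621), mouse10357 being the lowest LMPP library. Plac8, a small cysteine-rich protein of haematopoietic cells, rose from 60.7, 92.3, 125, 40.9 and 99.9 CPM to 1159.9, 1342, 2369, 1831 and 2535 CPM. Plac8 had a log2 fold change of 4.59 ± 0.26 (adjusted p = 7.59e-05). Arhgdib, a regulator of small GTPases, passed only just (log2 fold change 0.80 ± 0.19, adjusted p = 0.049) and lost its call without any 1 of the 5 mice (up to 0.137 without mouse10381). It also lost its call with upper quartile scaling and with the size factors of DESeq2.

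The genes next described were taken by their fitted fold change, which depends on the prior count where a population has no count and then ranks no true size. Among those that rose, Gcsam, an adaptor named from germinal centre B cells, had no count in HSCs and lay at 39.1, 37.6, 21.3, 51.5 and 22.9 CPM in LMPPs, at least 315-fold higher against 3 counts over the group, and lost its call without mouse10381 (adjusted p = 0.0618). Others were the receptor Cd300lb (0 counts against 821, at least 210-fold higher), the transporter Slc16a11 (1 count against 1012, ratio 778, lower 95% limit 139), Ubash3a, a phosphatase of lymphocyte signalling (1 against 772, ratio 593, lower 95% limit 106), the somatostatin receptor Sstr2 (log2 fold change 8.02 ± 0.72, adjusted p = 0.000693), Tespa1, a thymocyte signalling protein (log2 fold change 7.45 ± 0.46, adjusted p = 0.000116), the cystatin Cst7 (log2 fold change 7.58 ± 0.62, adjusted p = 0.000454) and the prostaglandin receptor Ptger2 (log2 fold change 7.24 ± 0.73, adjusted p = 0.00116). Cd300lb lost its call without any of mouse10357, mouse10358, mouse10380 and mouse10381 (adjusted p up to 0.0992), and Slc16a11 and Ubash3a without mouse10380 (0.0529 and 0.0917). Fcgr2b (log2 fold change 7.84 ± 1.78, adjusted p = 0.0444) and Sema3d (log2 fold change 7.32 ± 1.29, adjusted p = 0.0164) also rose, Fcgr2b losing its call without any 1 mouse (up to 0.149) and Sema3d without mouse10358 or mouse10381 (up to 0.066). Fcgr2b also lost its call with no scaling beyond library totals. Among those that fell, Nupr1, a stress-induced chromatin protein, was at 62.3, 103, 110.3, 48.4 and 33.4 CPM in HSCs and had no count in LMPPs (at least 812-fold lower), and Aldh1a1, an aldehyde dehydrogenase that makes retinoic acid, was at 59.9, 45.5, 73.9, 29.98 and 46.3 CPM and likewise without a count (at least 584-fold lower). Both kept their call without each single mouse, but Aldh1a1 did not without both mouse10372 and mouse10381. The amino acid transporter Slc6a15 (at least 647-fold lower), Clca3a1 (at least 538-fold), the ephrin Efna1 (1895 counts against 1, ratio 2466, lower 95% limit 442) and the corepressor Runx1t1 (1941 against 1, ratio 2526, lower 95% limit 453) kept theirs without each single mouse too. Occludin (Ocln, at least 363-fold), Tns2 (at least 398-fold), Clip3 (at least 341-fold), Cavin2 (at least 358-fold), Pla2g7 (at least 323-fold) and Plscr2 (at least 272-fold) lost their call without mouse10381, and all of these but Ocln without 1 or more other mice too (adjusted p up to 0.0924 for Pla2g7). Clca3a1 and Plscr2 belong to families of similar copies, so their counts are uncertain.

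Genes switched on or off were also counted, without a test. The count uses the same libraries, and some of its genes are among those called above, so it is no second line of evidence. At equal depth fewer genes were detected in the LMPP library of all 5 mice, and how far this enters the count was not tested. A gene had to hold 3 counts or fewer over the 5 libraries of 1 population and average 5 CPM or more in the other. By this rule 50 of 9609 genes that could qualify (0.52%) were seen in LMPPs and not in HSCs, and 218 of 10163 (2.15%) in HSCs and not in LMPPs. Of the 50, 20 had at least 3 counts in each of the 5 LMPP libraries, and 13 of the 18 tested were called. Of the 218, 114 had at least 3 counts in each HSC library, and 65 of the 93 tested were called. Genes seen in LMPPs included 5 Ighv segments, whose similar copies make counts uncertain. In control ALPs 39 of the 50 averaged at least 5 CPM, and 160 of the 218 averaged under 0.5 CPM. In Mbd3del mice 21 of the 50 and 95 of the 218 met the limit of 3 counts in the same population. The matching shares among all genes that could qualify were not counted. These numbers for ALPs and Mbd3del mice are therefore description only.

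The levels in ALPs and BLPs, given without a test, show which changes went on. Dntt averaged 1177 ± 403 CPM in LMPPs, 7018 ± 1871 CPM in ALPs and 5256 ± 785 CPM in BLPs and Rag2 66.9 ± 21.6, 311 ± 100.4 and 492 ± 45.5 CPM (SD, n = 5 each). Mean levels of Mpo were 506 ± 204, 490.1 ± 275 and 153 ± 60.7 CPM and those of Ctsg 102 ± 57.3, 27.5 ± 21.5 and 10.7 ± 8.31 CPM, so that Ctsg was highest in LMPPs, although the LMPP range (38.9 to 153 CPM) and the ALP range (2.08 to 60.6 CPM) overlap and those of Mpo overlap almost wholly. Il1r1 averaged 8.42 ± 4.96, 141 ± 49.2, 70.3 ± 24.9 and 18.5 ± 24.9 CPM from HSC to BLP and Btla 0.145 ± 0.164, 50.01 ± 11.4, 17.9 ± 15.1 and 18.5 ± 23.1 CPM, both highest in LMPPs in mean and with ranges that overlap those of ALPs. Of the losses, Car2 went on from 1366 ± 685 CPM in LMPPs to 98.9 ± 40.7 CPM in ALPs.

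**Figure D4:**
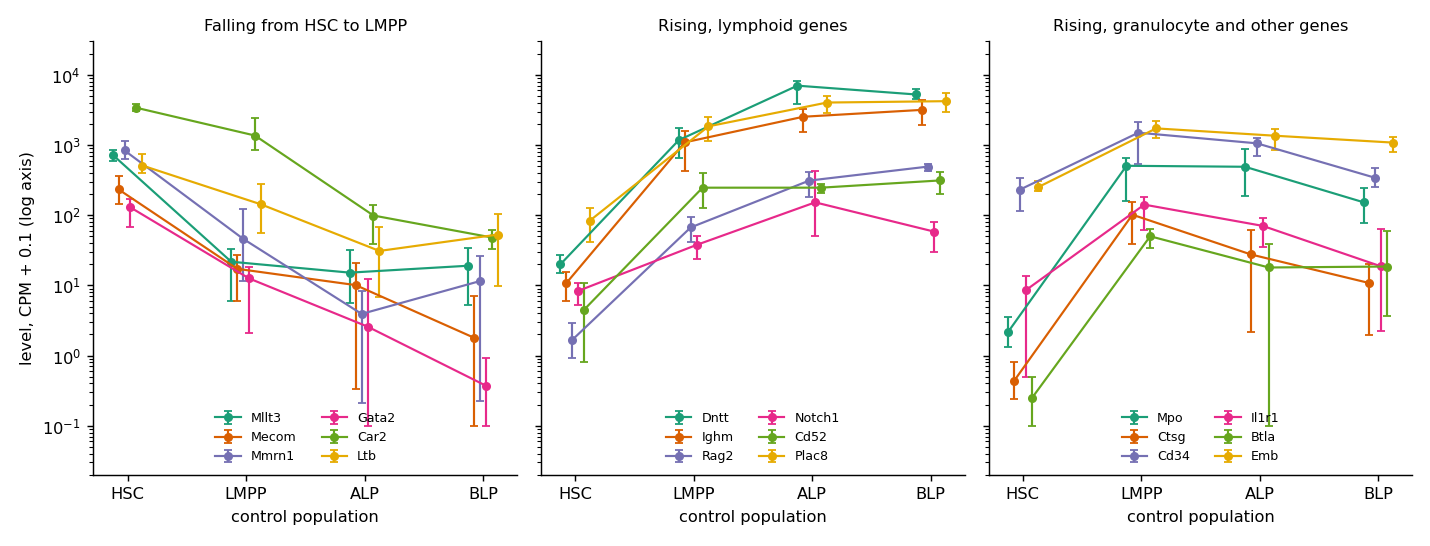
Mean level (CPM + 0.1, log axis) of 18 genes in the 4 control populations in order of the sorted stages, with bars from the lowest to the highest of the 5 libraries. Genes of the left panel fell from HSC to LMPP, those of the middle and right panels rose, and Ctsg, Il1r1 and Btla have their highest mean in LMPPs, with ranges that overlap those of ALPs.

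The same step was compared with that in mice without Mbd3. For Mbd3del LMPPs the sample titles read floxed, while the genotype and description read deleted, and the levels of Mbd3 go with the latter. In Mbd3del HSCs Mbd3 was at 0 to 0.205 CPM and in Mbd3del LMPPs at 0 to 1.18 CPM, against 8.18 to 20.4 and 18.5 to 54.2 CPM in controls. Of 11365 genes tested, 303 rose (2.67%) and 394 fell (3.47%). The 148 genes that rose in both genotypes are 56.5% of the control genes that rose and 48.8% of the Mbd3del ones, and the 177 that fell in both are 59.6% and 44.9%. All 258 control genes that rose and were tested in Mbd3del had the same direction there, as did 281 of 285 that fell, and none was called the other way. The log2 fold change of Mpo was 8.31 in Mbd3del and 8.01 in controls, that of Dntt 6.12 and 5.94, and that of Ighm 6.58 and 6.75. Mllt3 fell by 4.59 and 5.12, and Cdk6 rose by 2.06 and 2.34.

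No gene of 12576 passed the edgeR test of a difference in the step between genotypes, with 499 at an unadjusted p under 0.05 and a smallest adjusted p of 0.117. limma voom also called none, the newer edgeR estimator 1 and DESeq2 84. Among the 559 genes called in controls 100 had an unadjusted p under 0.05. These 559 were chosen by their control values, which also enter the test of the difference. A higher share than among all 12576 genes is therefore no independent evidence. The genes named above with the smallest unadjusted p for the difference were Cd52, Car2 and Mmrn1. They were picked after these values were seen and were themselves mostly chosen by their control values. Cd52 rose by 6.26 in controls and by 3.71 in Mbd3del (difference -2.55 ± 0.54, edgeR adjusted p = 0.632). Car2 averaged 2193 ± 620.2 CPM in Mbd3del HSCs and 2167 ± 587 CPM in Mbd3del LMPPs (SD, n = 5 each), so that its log2 fold change was 0.03 against -1.34 in controls (difference 1.39 ± 0.33, edgeR adjusted p = 0.853). Mmrn1 fell by 2.18 on the log2 scale in Mbd3del and by 4.52 in controls (difference 2.35 ± 0.59, edgeR adjusted p = 0.949). None of these differences held after adjustment in edgeR, and whether these genes are among the 84 called by DESeq2 was not examined.

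**Figure D5:**
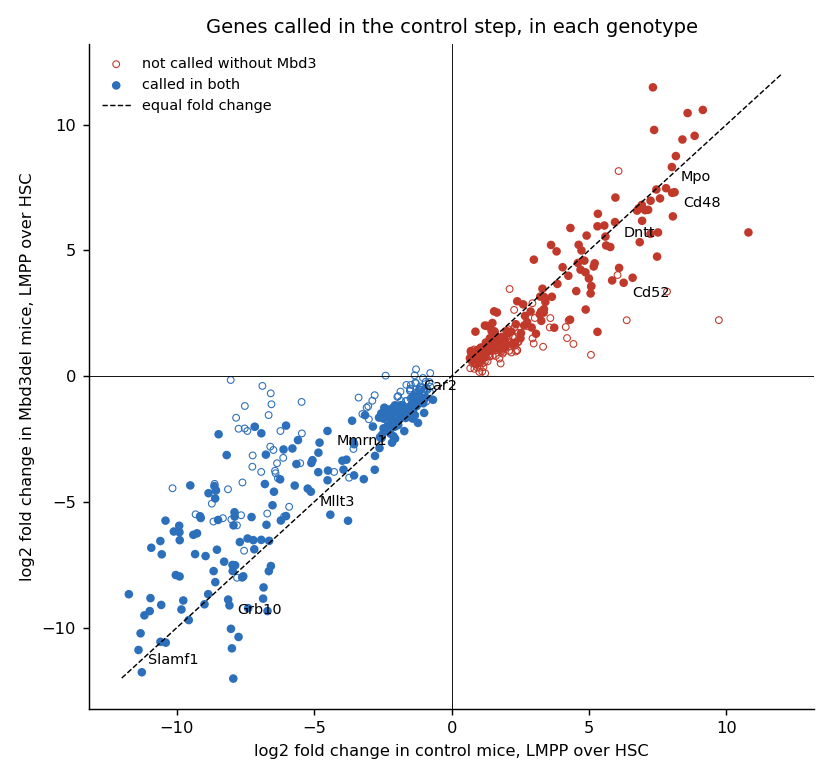
Log2 fold change, LMPP over HSC, in control mice (x axis) and in Mbd3del mice (y axis) for the genes called in controls that were tested in both, with genes that rose in red and genes that fell in blue. Filled points passed in both genotypes (148 rose and 177 fell), open points in controls alone, and the dashed line marks equal fold changes; since the genes were chosen by their control values, these tend to lie farther from 0 than the Mbd3del ones.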

How the data were processed

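RNA was measured in 10 control libraries, 5 of HSCs and 5 of LMPPs, and for comparison in control ALPs and BLPs and in Mbd3del mice. The deposited table holds whole-number counts per gene, which the authors made with STAR 2.5.2b, HTSeq 0.6.1p1 and the GRCm38 genome, per the submitters' processing notes. Neither the annotation release nor the strand setting of the counting is given in the sources used here; the kit does not mark strand. Of its 128910 rows the 49585 genes were used, and the 79325 repeat rows (0.205% to 0.855% of counts) were left out. Symbols came from GENCODE M21 for 49326 genes. Genes were filtered with filterByExpr, scaled by TMM and tested with the robust quasi-likelihood F test of edgeR 4.0.16 (R 4.3.3), with mouse as a block, since both populations came from the same animals, and Benjamini-Hochberg adjustment at 0.05. Deviations of libraries from their group means correlated at 0.0235 to 0.114 within a mouse, highest with the own partner in 3 of 5. Library measures were compared by exact two-sided permutation over 252 arrangements (smallest p 0.00794). The code was tested on simulated counts. Alternatives were other scalings, filters and tools (DESeq2 1.42.0, limma 3.58.1) and omission of each mouse. Depths of 3219784 to 8427880 put 3 counts at 0.356 to 0.932 CPM; without molecular identifiers, intervals and floors cover counting error only. Named genes were the largest changes by fold and by level, the called members of each list with the largest folds, gate genes and defining markers. The members and lists were chosen with earlier results of these data known.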

Additional observations from a re-analysis of the deposited data

Results flagged for a closer look

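In 6 of 94 groups of 5 values, 1 library lay far from the other 4 by Dixon's test at the 95% level. A group with 4 libraries at 0 and 1 above is always flagged, and a group without any count never is. The number flagged is therefore not compared with a chance rate. Slamf1 was at 0.160 CPM in the LMPP library of mouse10380 and at 0 in the other 4, and Tek at 0.125 CPM in that of mouse10358 and at 0 in the rest, each a single count. Cd48 was highest among HSCs in mouse10372, at 6.21 CPM. Among LMPP libraries Mmrn1 was highest in mouse10357, at 122.9 CPM, and Grb10 in mouse10381, at 9.25 CPM. Ribosomal protein genes took 2.57% of the counts in the LMPP library of mouse10381, the highest of its population.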

How the results depend on the processing

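Signs were checked for the 113 genes that the rule for named genes took, and not for the other genes given. None of the 113 changed sign under any alternative in which it was tested, except Il7r, which did not pass in any. Its log2 fold change moved from 0.21 to between -0.0839 (without mouse10358) and 0.47 when single mice were left out. Over all alternatives it was at most 0.51. Without the mouse block (pairing), 311 genes rose and 351 fell in controls, 340 and 426 in Mbd3del, and 481 of the 559 called genes (86.0%) were kept; 7 named genes lost their call. DESeq2 called 783 higher and 1203 lower, limma voom 460 and 524, the newer edgeR estimator 598 and 703, and a test against a 2-fold change (glmTreat) 82 and 118. Without mouse10372 and mouse10381 the numbers were 93 and 89, with 150 of the 559 genes shared, and without single mice 100 to 273 and 111 to 291. With no scaling beyond library totals 204 rose and 305 fell, a split of 40.1% to 59.9% against 46.9% to 53.1%. There 6 named genes lost their call: Procr, Lck, Selplg, Notch1, Fcgr2b and Ccne2. Arhgdib lost its call with upper quartile scaling and with the size factors of DESeq2. Over all lists, 64 members rose and 47 fell in the main test, 115 and 102 by DESeq2, 102 and 80 by the newer estimator, 27 and 20 by glmTreat, 34 and 20 without both mice, and 32 to 65 and 26 to 48 without single mice. In Mbd3del the numbers were 740 and 1004 by DESeq2, 509 and 713 by the newer estimator, 119 and 165 by glmTreat, and 144 to 260 and 185 to 286 without single mice. Genotypes differed for 84 genes by DESeq2, 1 by the newer estimator and 0 to 2 without single mice (2 without mouse10357). Genes seen in LMPPs and not in HSCs numbered 76 with at most 10 counts allowed and 23 with a mean of at least 10 CPM required, and those seen in HSCs and not in LMPPs 97 with the latter. Without single mice the mitochondrial difference, LMPP minus HSC, lay between -0.933 and 0.0567 percentage points (above 0 without mouse10358) and that of the 10 most counted genes between -0.454 and 0.632 (below 0 without mouse10372, or, at -0.246, without mouse10381). Of the 113 named genes 106 were called; 36 were called under every alternative and 52 without each single mouse. The causes were not tested. At the depth of these libraries 3 counts are worth 0.356 to 0.932 CPM.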

Other observations

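Some genes seen in 1 population and almost absent from the other lie outside the groups above; they were chosen after their values were seen. Il4, the cytokine of type 2 immunity, had 1426 counts over the HSC libraries (25.3 to 102 CPM) and 2 over the LMPP libraries, a ratio of 928 with a lower 95% limit of 256. Sox6, a factor known from erythroid cells and cartilage, had 1428 counts and 1 (ratio 1858, lower limit 333), Rarb, a retinoic acid receptor, 781 and 1 (ratio 1016, lower limit 182), and Gda, guanine deaminase, 1894 and 3 (ratio 821, lower limit 281). These 4 passed the edgeR test, and all averaged under 0.5 CPM in control ALPs. Whether their calls were kept without single mice was not examined gene by gene. In Mbd3del mice Sox6, Rarb and Il4 had 17, 43 and 140 counts over the 5 LMPP libraries, and Gda had 4.

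In the other direction Cebpa, a factor of granulocyte development, had 1 count over the HSC libraries and 383 over the LMPP libraries (ratio 294, lower 95% limit 52.5), and Icos, a costimulatory receptor of T cells, 2 and 590 (ratio 227, lower limit 62.5). Mcpt8, a basophil protease, had 3 and 518 (ratio 133, lower limit 45.2). These 3 did not pass the filter on low counts and have no test. In ALPs the mean of Icos was 23.9 CPM, that of Cebpa 9.55 CPM and that of Mcpt8 15.1 CPM.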
